A study of Mus musculus with 77 samples.

Results

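Collagen genes were followed across the ribosome-bound and total RNA of the testis of young mice. Every gene whose symbol consists of Col, a chain type number, the letter a and a chain number was taken, which gave 44 of the 19938 genes with a value. RNA was measured on 77 one-colour gene arrays of testes from mice with a RiboTag allele. Its ribosomal protein gains an epitope tag where a Cre recombinase acts, so that tagged polysomes and their RNA can be pulled down (IP). In the Amh line (Amh-cre, FVB/N) the tag lies in Sertoli cells, the somatic nurse cells of the seminiferous tubule, and 16 IP and 14 total RNA arrays were available. The Stra8 line (Stra8-cre, FVB/N; 16 IP and 23 total arrays) and the Ngn3 line (Ngn3-cre, C57BL/6; 4 IP and 4 total arrays) tag germ cells, and line and strain cannot be told apart for Ngn3. All animals, time 0 included, had been given WIN,18446 (BDAD), an inhibitor of retinoic acid synthesis, for 9 days, and were then killed at once or injected with retinoic acid. The labelled times after the injection were 0, 4h, 12h and 24h, then 48h and 4d, and last 6d and 8d, of which the Ngn3 line had 0 and 4h. Amh total arrays at 4h were not used here, and no vehicle-injected group is among these arrays. Cre lines act only as far as their promoters reach, and IP RNA can hold RNA of untagged cells.

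Collagens are the main structural proteins of the extracellular matrix, built of chains that wind into helical trimers. Type I, III and V chains form the fibrils of interstitial connective tissue and type VI chains form beaded filaments around cells, while type IV chains form the network of basement membranes. Collagens XV and XVIII, the multiplexins, carry sugar side chains and sit at basement membranes, and the end of the collagen XVIII chain can be released as endostatin. In the testis, the basement membrane of the tubule lies between Sertoli cells, which face it from inside, and peritubular myoid cells, which face it from outside, and fibroblasts and other stromal cells lie in the interstitium beyond.

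In the marker check, all 14 measured Sertoli markers were higher in Amh IP than in Amh total RNA with an adjusted p under 0.05, and all 14 germ cell markers were lower. By that rule 51% of all genes were higher and 23.2% lower. All 14 Sertoli markers were at least 2-fold lower in the IP RNA of both germ cell lines, where 5.37% (Stra8) and 6.75% (Ngn3) of all genes were. Mean log2 intensity over the Sertoli list ran from 12.47 to 12.72 in Amh IP, from 9.14 to 11.15 in Stra8 IP and from 9.82 to 9.99 in Ngn3 IP arrays. No list mean was at the array minimum in any fraction. A background level of the probes was not determined, so low RNA of untagged cells and probe background cannot be told apart. Over 11 myoid markers the mean ran from 8.56 to 9.04 in Amh IP and from 8.27 to 9.34 in Stra8 IP, against 9.46 to 10.14 and 9.54 to 9.97 in total RNA. Over 7 interstitial stroma markers it ran from 7.91 to 8.74 in Amh IP and from 9.66 to 10.83 in Amh total. Some arrays went against their labels in Rarb, a direct target of retinoic acid: its log2 intensity was 8.88 and 8.82 in Amh total labelled 4d (6.84 and 6.90 at 0), 7.18 and 7.16 in Amh IP labelled 4h, and 8.52, 6.98 and 6.99 in Stra8 total labelled 4h. The labels were kept, and the contrasts of late with early times use none of these arrays. Comparisons over all times include them. With the 4h and 4d Amh arrays left out 7 collagens were called in Amh IP against total (7 with them) and 17 passed in Amh IP against Stra8 IP (24 with them), and with the Stra8 total arrays labelled 4h left out 4 were called in Stra8 IP against total (3 with them). The first Amh total array at 48h and the first Stra8 IP array at 4d stood high in fibrillar collagens. That Stra8 IP array also stood high in the lists of untagged cells. Its mean log2 was 11.15 over the Sertoli list, 9.34 over the myoid list and 9.68 over the stroma list. The other array of its group read 10.17, 8.61 and 8.82. Over the Leydig cell list the first and second array read 9.14 and 8.12, over the macrophage list 8.88 and 7.73. Over the germ cell list they read 11.28 and 11.51.

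Collagen probe intensities were modest. Geometric means over all arrays ran from 119.5 to 1210.7 intensity units, and 5 of the 44 genes (Col9a1, Col10a1, Col12a1, Col19a1 and Col28a1) lay in the 30% of genes with the lowest signal. Each gene is read by its own probes, so values are compared between samples and not between genes. In total RNA, fewer cells of a type and less RNA per cell cannot be told apart.

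The start regions of 3 genes are shown here because they lie in 1 chromosome cluster or carry the results below: Col18a1, the only collagen higher in Sertoli cell ribosomes by the 2-fold rule, and Col1a2 and Col6a1, the collagens lower by that rule in the ribosome fraction of every line. Col6a1 lies on chromosome 10 next to Col6a2, and 2 protein-coding genes separate it from Col18a1. Each line gives the 250 bases before an annotated transcript start (RefSeq, GRCm38.p6), 5′ to 3′ on the gene's strand. Capitals mark the motif CCAAT, the motif TATAA or the motif GGGCGG, read on either strand.
Col18a1, upstream start, chr10:77166531-77166780, minus strand: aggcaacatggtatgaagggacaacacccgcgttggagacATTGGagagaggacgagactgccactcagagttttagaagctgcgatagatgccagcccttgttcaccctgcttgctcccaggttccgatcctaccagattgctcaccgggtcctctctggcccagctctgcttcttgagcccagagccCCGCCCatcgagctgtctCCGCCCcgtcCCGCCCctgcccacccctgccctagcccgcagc
Col18a1, downstream start, chr10:77113706-77113955, minus strand: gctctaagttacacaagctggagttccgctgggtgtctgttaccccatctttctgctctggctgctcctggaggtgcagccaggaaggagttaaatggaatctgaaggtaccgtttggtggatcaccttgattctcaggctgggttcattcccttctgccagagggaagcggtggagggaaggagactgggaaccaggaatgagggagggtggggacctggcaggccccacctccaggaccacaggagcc
Col1a2, chr6:4505368-4505617, plus strand: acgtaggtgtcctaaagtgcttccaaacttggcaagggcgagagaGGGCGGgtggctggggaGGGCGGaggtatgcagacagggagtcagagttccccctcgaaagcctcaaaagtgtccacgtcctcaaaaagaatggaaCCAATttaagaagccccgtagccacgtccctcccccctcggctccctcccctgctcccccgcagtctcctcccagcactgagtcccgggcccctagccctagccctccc
Col6a1, chr10:76726045-76726294, minus strand: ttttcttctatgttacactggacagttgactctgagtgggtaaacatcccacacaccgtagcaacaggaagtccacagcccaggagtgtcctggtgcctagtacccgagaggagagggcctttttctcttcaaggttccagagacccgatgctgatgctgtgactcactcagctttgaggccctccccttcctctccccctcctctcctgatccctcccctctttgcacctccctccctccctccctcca
The upstream Col18a1 window holds 3 GGGCGG matches on the other strand and 1 CCAAT match, and the Col1a2 window holds 2 GGGCGG matches and 1 CCAAT match. None of the searched letters lie in the downstream Col18a1 window or in the Col6a1 window. A window was found for 35 of the 44 genes, 38 windows in all, and GGGCGG was in 22 of them (57.9%) against 32.7% of all 32851 windows. CCAAT was in 34.2% of collagen windows and 33.8% of all, TATAA in 18.4% and 22.8%, GATAA in 15.8% and 22.6%, and AACAAT in 2.63% and 9.42%. The first and the last of these motifs share their final 4 letters, as do TATAA and GATAA, and a match is a description of sequence only. The arrays do not say from which Col18a1 start the RNA came.

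Sertoli cell ribosomes were compared with the whole testis first. A gene was called when its adjusted p in the limma fit was under 0.05 with a difference of 2-fold or more, and said to have passed when the adjusted p alone was under 0.05. In the Amh line 1 collagen gene was called higher in IP RNA, where 1.1% of all genes were, and 6 were called lower, where 3.94% of all genes were. Without the fold minimum 14 rose and 17 fell, against 51% and 23.2% of all genes. The median difference over the 44 genes was 0.03 on the log2 scale and that over all genes 0.12, so a collagen at 0 lay slightly below the typical gene.

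Col18a1, the chain of collagen XVIII, was the gene called higher. Its intensity in the 16 Amh IP arrays ran from 1611 through a median of 2745 to 3308, and in the 14 Amh total arrays from 796 through 1230 to 1584. Every IP array lay above every total array, as for 5.81% of all genes over the 7 shared times. The mean difference was 1.11 ± 0.06 on the log2 scale (SE; adjusted p = 3.98e-23), and it was positive at each of the 7 times with both fractions, from 0.95 at 4d to 1.47 at 8d. With the 4h and 4d Amh arrays left out it was 1.14.

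Of the 11 chains of the fibrillar class 5 fell and 3 rose in Amh IP, and of the 6 type VI chains 4 fell and 2 rose (Col6a5 at 0.18 and Col6a6 at 0.11). Col1a2, the second chain of type I collagen, ran from 489 through 630 to 855 in Amh IP and from 1207 through 1905 to 3580 in Amh total RNA, and its difference was -1.53 ± 0.07 (adjusted p = 6.33e-25). Col1a1, the other type I chain, ran from 524 through 654 to 917 in IP and from 1057 through 1821 to 3654 in total RNA (-1.32 ± 0.06, adjusted p = 8.15e-24). In both genes the highest IP array lay below the lowest total array. Col3a1, the chain of the fine fibrils of type III, differed by -1.09 ± 0.06 (adjusted p = 1.66e-22), with 453 to 659 in IP and 778 to 2177 in total RNA.

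Among type VI chains, Col6a1 ran from 465 through 554 to 766 in Amh IP and from 873 through 1465 to 2399 in total RNA, a difference of -1.33 ± 0.06 (adjusted p = 1.66e-24). Col6a2 (-1.10 ± 0.07) and Col6a3 (-1.05 ± 0.06), the chains that assemble with it, were called as well. Col15a1, the other multiplexin, fell by 0.95 on the log2 scale (SE 0.06, adjusted p = 1.73e-19), from 529 to 1071 in total RNA to 326 to 476 in IP RNA, so that the 2 multiplexins moved in opposite directions. Col14a1, which binds to the surface of fibrils, fell by 0.83 (SE 0.08, adjusted p = 8.44e-14). All IP arrays lay below all total arrays for 10 collagen genes (4.7% of all genes) and above them for 1 (5.81%), and the fractions overlapped for 33.

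**Figure D1:**
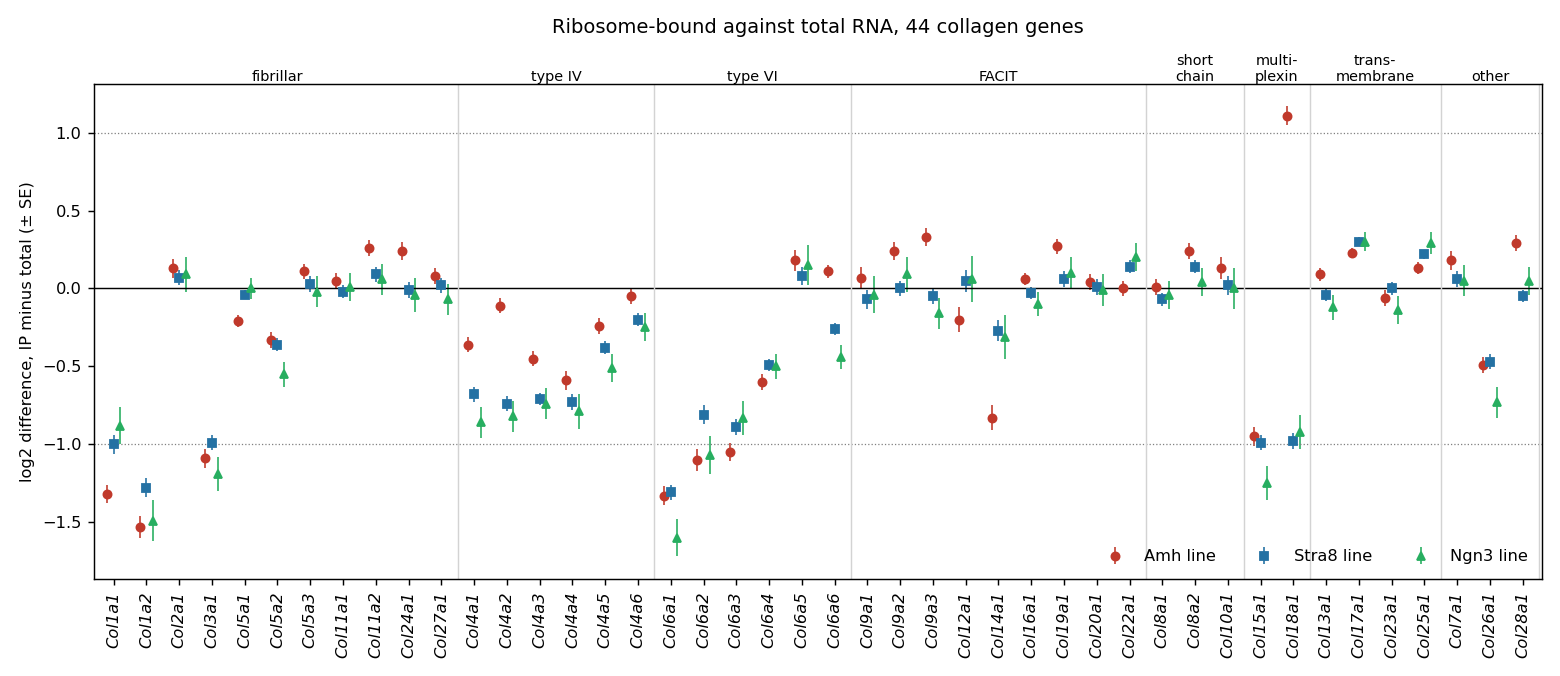
Log2 difference of IP from total RNA (y axis, mean ± SE of the limma fit) for each of the 44 collagen genes (x axis, grouped by chain class) in the Amh, Stra8 and Ngn3 lines; dotted lines mark a 2-fold difference. Col18a1 is at 1.11 in the Amh line and at -0.98 and -0.92 in the Stra8 and Ngn3 lines, while Col1a2 and Col6a1 lie below -1 in all 3.

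The type IV chains of the basement membrane network lay between these groups. No type IV gene was called in Amh IP against total, and 4 of 6 passed, all lower: Col4a4 (-0.59), Col4a3 (-0.45), Col4a1 (-0.36 ± 0.05, adjusted p = 3.27e-08) and Col4a5 (-0.24). Col4a2, the partner of Col4a1 in the common type IV trimer, differed by -0.11 ± 0.05 (adjusted p = 0.0518), and Col4a6 by -0.05 (adjusted p = 0.297). With IP and total arrays paired in a replicate block Col4a2 passed at -0.11 (adjusted p = 0.0373). The sign of both depended on scaling: with each array centred on its median Col4a2 was at 0.03 and Col4a6 at 0.08, and with quantile normalization Col4a2 was at -0.20 (adjusted p = 0.00041). Col4a2 intensity ran from 675 through 953 to 1247 in Amh IP and from 653 through 1001 to 1339 in total RNA, and the fractions overlapped over nearly all of that range. By time the Col4a2 difference ran from -0.51 at 48h to 0.03 at 8d.

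Most genes of the remaining classes moved little, with Col14a1 of the fibril-associated class, described above, and Col26a1 as exceptions. Of the 4 transmembrane collagens Col17a1 (0.23) and Col25a1 (0.13) passed in Amh IP, and of the 9 collagens of the fibril-associated class Col9a2 (0.24), Col9a3 (0.33) and Col19a1 (0.27) rose. Col28a1, a minor collagen, rose by 0.29, and Col26a1 fell by 0.49. Of the 11 fibrillar chains 3 rose without reaching 2-fold, Col11a2 (0.26), Col24a1 (0.24) and Col2a1 (0.13). Rises of this size are close to the all-gene median of 0.12. Col5a1, a chain that starts type I fibrils, fell by 0.21 (adjusted p = 6.09e-06), but by 0.07 with median centring (adjusted p = 0.08) and by 0.06 with quantile normalization (adjusted p = 0.187).

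In the germ cell lines the same comparison gave lower values only among the called genes. In the Stra8 line 3 collagens were called lower, where 5.37% of all genes were, and 0 higher, where 3.84% were: Col6a1 (-1.31 ± 0.05), Col1a2 (-1.28 ± 0.06) and Col1a1 (-1.00 ± 0.06). A further 3 genes lay close to the 2-fold line, Col15a1 and Col3a1 at -0.99 and Col18a1 at -0.98. The count therefore depended on single arrays, and was 6 without the second Stra8 IP array at 24h or the first at 4d, and 5 without the second at 0. In the Ngn3 line 5 were called lower (6.75% of all genes) and 0 higher (6.18%): Col6a1 (-1.60 ± 0.12), Col1a2 (-1.49 ± 0.13), Col15a1 (-1.25 ± 0.11), Col3a1 (-1.19 ± 0.11) and Col6a2 (-1.07 ± 0.12).

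Without the fold minimum 4 collagens rose and 19 fell in the Stra8 line, against 42.4% and 28.9% of all genes, and 2 rose and 18 fell in the Ngn3 line, against 31.5% and 24.1%. All 6 type IV genes passed in both lines, each lower: Col4a1 was at -0.68 and -0.86, Col4a2 at -0.74 and -0.82, Col4a3 at -0.71 and -0.74, Col4a4 at -0.73 and -0.79, Col4a5 at -0.38 and -0.51, and Col4a6 at -0.20 and -0.25 in Stra8 and Ngn3. The Ngn3 value of Col4a6 was at an adjusted p of 0.0837 without the first IP array at 4h. Col17a1 (0.30 in both) and Col25a1 (0.22 and 0.29) rose.

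Lower values in all 3 lines were found for 14 collagen genes (31.8%) without the fold minimum, and for 1321 of all genes (6.63%). They were 4 fibrillar chains (Col1a1, Col1a2, Col3a1, Col5a2), 4 type IV chains (Col4a1, Col4a3, Col4a4, Col4a5), 4 type VI chains (Col6a1, Col6a2, Col6a3, Col6a4), Col15a1 and Col26a1. With the fold minimum Col1a2 and Col6a1 remained (4.55%, against 0.978% of all genes). Higher values in all 3 lines were found for Col17a1 and Col25a1 (4.55%, against 11.9%).

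Marker lists of the other cell types of the testis wall and interstitium were lower in IP RNA too. Of 11 myoid markers 8 were called lower in Amh IP, 6 in Stra8 IP and 7 in Ngn3 IP. Of 7 interstitial stroma markers 7, 6 and 6 were, against 3.94%, 5.37% and 6.75% of all genes. The median of the myoid list was 8.68 in Amh IP and 9.81 in Amh total. Those of the Leydig cell, macrophage and endothelial lists were 8.67, 7.67 and 7.92 in Amh IP. In Amh total they were 10.12, 8.83 and 9.08. The median differences of the stroma list were -2.01, -1.54 and -1.68, larger in size than that of any collagen gene. Acta2, the smooth muscle actin of myoid cells, differed by -1.55 in the Amh line. The part of these cells in the collagen values was not tested.

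Sertoli and germ cell ribosomes were then compared directly. Between Amh IP and Stra8 IP, 1 collagen was called higher, where 9.26% of all genes were, and 0 lower, where 7.54% were. It was again Col18a1, which ran from 409 through 501 to 987 in the 16 Stra8 IP arrays, against 1611 through 2745 to 3308 in Amh IP. Its Amh IP and Stra8 IP arrays did not overlap, and those of the other 43 collagens did, where 10.2% of all genes had every Amh array above and 10.7% every Amh array below. The difference was 2.26 ± 0.05 on the log2 scale, or 4.80-fold (adjusted p = 3.39e-38). Within the Stra8 line IP lay below total RNA by 0.98 on average (-0.98 ± 0.05, adjusted p = 1.26e-23), from -0.35 at 4d to -1.41 at 6d. In total RNA the 2 lines differed by 0.14 ± 0.05 (adjusted p = 0.0579), with 796 to 1584 in Amh and 797 to 1398 in Stra8. In the Ngn3 line Col18a1 was at 590 and 610 in IP at 0 and at 726 and 684 at 4h, below all 4 total arrays as were 23.6% of all genes (1160 to 1257; -0.92 ± 0.11, adjusted p = 1.28e-10).

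Without the fold minimum 14 collagens were higher in Amh IP than in Stra8 IP and 10 lower, against 33.9% and 32.6% of all genes. All 6 type IV chains were among the higher ones. Col4a2 differed by 0.81 ± 0.05 (adjusted p = 1.45e-20), with 675 through 953 to 1247 in Amh IP and 403 through 538 to 803 in Stra8 IP, so that the upper Stra8 arrays overlapped the lower Amh arrays. Col4a1 differed by 0.45 ± 0.05 (adjusted p = 4.69e-12), with 572 through 658 to 777 in Amh IP and 394 through 480 to 723 in Stra8 IP. Col4a3 (0.35), Col4a5 (0.20), Col4a4 (0.15, adjusted p = 0.0109) and Col4a6 (0.10, adjusted p = 0.0355) differed less. Col4a4 was at an adjusted p of 0.0501 without the first Stra8 IP array at 24h, and Col4a6 was at 0.03 (adjusted p = 0.606) with the 4h and 4d Amh arrays left out.

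The genes of Col4a1 and Col4a2 start 21 bases apart on opposite strands of chromosome 8, and those of Col4a5 and Col4a6 start 1343 bases apart on chromosome X. Col4a3 and Col4a4 are also neighbours, on chromosome 1. Within the first pair the differences between IP fractions were thus 0.45 and 0.81.

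Lower in Amh IP than in Stra8 IP were Col14a1 (-0.52 ± 0.07, adjusted p = 5.32e-09), Col1a1 (-0.34), Col6a2 (-0.31), Col1a2 (-0.27), Col25a1 (-0.18), Col5a1 (-0.16), Col22a1 (-0.15), Col3a1 (-0.12), Col26a1 (-0.11) and Col17a1 (-0.07). Higher beside the type IV chains and Col18a1 were Col9a3 (0.33), Col6a6 (0.29), Col28a1 (0.27), Col24a1 (0.19), Col19a1 (0.15), Col9a2 (0.14) and Col16a1 (0.09). Col6a1 and Col15a1 did not pass. All 14 Sertoli markers were called higher in the same comparison and all 14 germ cell markers lower (9.26% and 7.54% of all genes). The 11 myoid markers had a median difference of -0.01.

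In total RNA the 2 lines hold the same tissue, and 0 collagens were called higher or lower (0.01% and 0.0201% of all genes). Col4a2 (0.17) and Col25a1 (-0.10) passed, where 8.55% of all genes rose and 9.42% fell.

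Since the lines' total RNA is also part of the measurement, the difference between the 2 enrichments (IP minus total in Amh, less the same in Stra8, over the 7 shared times) was tested as an interaction. For Col18a1 it was 2.09 ± 0.08 (adjusted p = 3.72e-29), the 1 collagen called, with 9.26% of all genes called higher and 8.16% lower. Without the fold minimum 12 were higher and 5 lower, against 32.8% and 30.1%. Of the type IV genes 4 were among the higher ones, Col4a2 (0.64 ± 0.07, adjusted p = 4.97e-11), Col4a1 (0.32 ± 0.07, adjusted p = 8.22e-05), Col4a3 (0.28, adjusted p = 0.000442) and Col4a4 (0.21, adjusted p = 0.0171), while Col4a5 (0.12, adjusted p = 0.102) and Col4a6 (0.13, adjusted p = 0.0777) did not pass. Lower were Col14a1 (-0.55 ± 0.10, adjusted p = 8.87e-06), Col6a2 (-0.30, adjusted p = 0.00338) and Col1a1 (-0.26, adjusted p = 0.00825) among others. With the 4h and 4d Amh arrays left out the Col1a1 difference was -0.12 (adjusted p = 0.298) and that of Col6a2 -0.18 (adjusted p = 0.122), and 11 genes passed in place of 17.

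**Figure D2:**
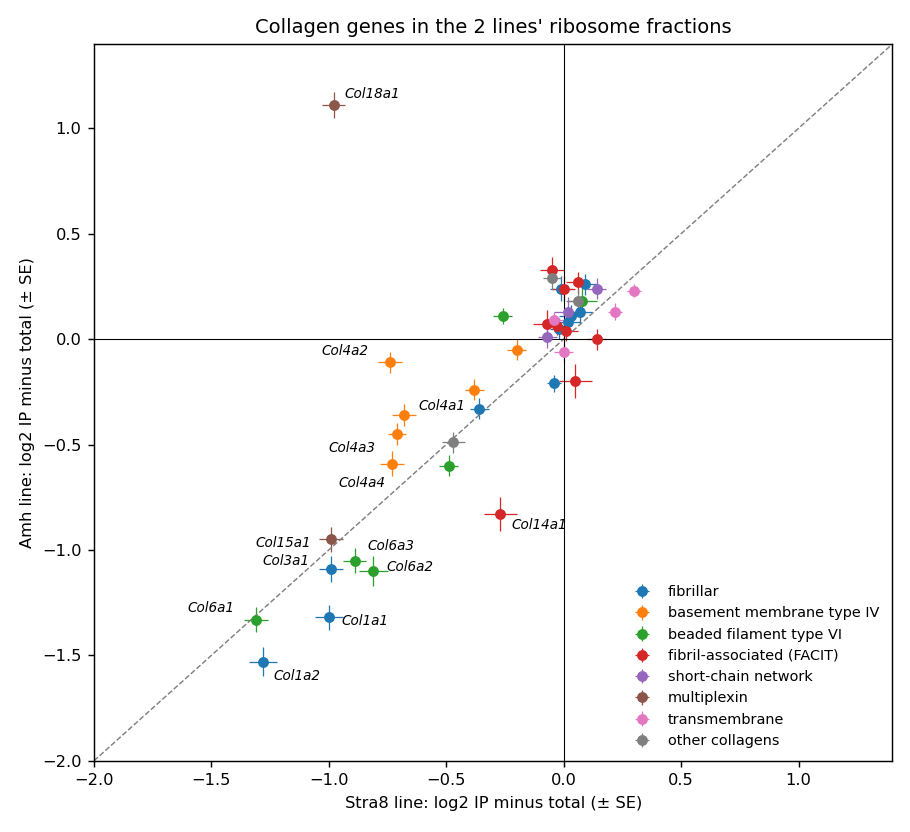
Each of the 44 collagen genes by its log2 difference of IP from total RNA in the Stra8 line (x axis) and in the Amh line (y axis), both ± SE of the limma fit, coloured by chain class, with equal values on the dashed line. Col18a1 stands alone at upper left (-0.98, 1.11), type IV chains lie above the dashed line, and Col14a1 lies below it (-0.27, -0.83).

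Time after retinoic acid was summarised as late (6d and 8d) against early (0, 12h, 24h and 48h). With 9 days of BDAD before every injection and no vehicle-injected group, time after retinoic acid and animal age cannot be told apart. Changes were below 2-fold, and 0 collagens were called in any line and fraction (2.2% of all genes called in Amh total, 2.54% in Stra8 total, 2.21% in Amh IP and 3.38% in Stra8 IP). Those that passed were mostly decreases in Amh total, Stra8 total and Stra8 IP, but not in Amh IP. With no fold minimum 15 collagens fell and 2 rose in Amh total RNA, where 37.2% of all genes passed and 18.2% fell. In Stra8 total 9 fell and 1 rose (17% and 24.5% of all genes), in Stra8 IP 10 fell and 0 rose (21.6% and 22.2%), and in Amh IP 2 fell and 3 rose (15.1% and 16.9%). The Stra8 total count depended on scaling and was 19 with median centring and 21 with quantile normalization, and it was 6 without the first array at 8d. The Stra8 IP count was 16 without the first array at 8d, and the Amh IP count was 2 without the first array at 6d or the second at 8d.

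In Amh total RNA the largest decrease was that of Col1a1. Its arrays read 1904 and 1942 before the injection. They then read 1586 and 1881 (12h), 1761 and 1716 (24h), 3654 and 1965 (48h), and 2132 and 2062 (4d). At 6d they read 1096 and 1214 and at 8d 1138 and 1057, so that all 4 late arrays lay below all 8 early ones. The difference was -0.82 ± 0.10 (adjusted p = 8.37e-09). Col3a1 (-0.65 ± 0.09, adjusted p = 1.08e-07) went from 1131 through 1236 to 2177 in early arrays to 778 to 952 in late ones. Col1a2 (-0.61 ± 0.11), Col6a2 (-0.61 ± 0.11) and Col6a1 (-0.60 ± 0.10) fell as well, with no overlap of late and early arrays.

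The other chains that fell in Amh total RNA were Col12a1 (-0.62), Col6a3 (-0.55), Col5a2 (-0.49), Col4a2 (-0.41 ± 0.09, adjusted p = 0.000117), Col15a1 (-0.35), Col6a6 (-0.35), Col4a1 (-0.32), Col26a1 (-0.32), Col4a4 (-0.29) and Col5a1 (-0.22). Some of these calls depended on 1 setting: Col12a1 was at an adjusted p of 0.0509 when only the compared groups were fitted, Col15a1 was at -0.25 (adjusted p = 0.0772) without the first array at 6d, and Col4a4 at -0.27 (adjusted p = 0.0541) without that array. The Col12a1 value rested on the Amh total arrays at 48h and was -0.39 without the first and -0.84 without the second. Late arrays lay below all early arrays for 10 genes, as for 8.13% of all genes. They were Col1a1, Col1a2, Col3a1, Col4a2, Col4a4, Col5a2, Col6a1, Col6a2, Col6a6 and Col12a1. Col28a1 (0.30) and Col20a1 (0.23) rose, the latter at 0.19 (adjusted p = 0.143) without the first array at 6d.

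In Stra8 total RNA Col1a1 read 1199 and 1241 at 6d but 2116 and 2199 at 8d, where Amh total stayed at or below 1214, and its difference was -0.19 (adjusted p = 0.121), but -0.30 with quantile normalization (adjusted p = 0.0124). Col3a1 read 909 and 1050 at 6d and 1263 and 1242 at 8d, and its difference was -0.34 with quantile normalization (adjusted p = 0.00165) and -0.25 with the replicate block (adjusted p = 0.0427). Col6a1 fell by 0.41 on the log2 scale (SE 0.09), from 1450 through 1553 to 2110 in early arrays to 1014 to 1321 in late ones. Col4a2 (-0.32), Col5a2 (-0.32), Col6a2 (-0.28), Col4a4 (-0.25), Col4a1 (-0.22), Col25a1 (-0.20), Col6a6 (-0.19) and Col17a1 (-0.18) also fell, and Col28a1 rose (0.29). Without the first array at 8d the type IV values were -0.23 for Col4a2 (adjusted p = 0.0512), -0.16 for Col4a4 (adjusted p = 0.229) and -0.13 for Col4a1 (adjusted p = 0.268), and Col6a2 was at -0.29 (adjusted p = 0.0521). With the replicate block Col6a2 was at -0.27 (adjusted p = 0.0541). Col6a1 and Col5a2 were the genes whose late arrays lay below all early ones, as did 3.32% of all genes.

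The difference between the lines' late changes in total RNA was tested as an interaction. The late change was lower in the Amh line than in the Stra8 line for Col1a1 (-0.63 ± 0.14, adjusted p = 0.0129) and Col12a1 (-0.71, adjusted p = 0.0308), where 1.28% of all genes passed with a negative and 0.266% with a positive sign. Without the first Amh total array at 6d the Col1a1 value was -0.59 (adjusted p = 0.0506). The Col12a1 value was at an adjusted p of 0.221 when only the compared groups were fitted and at 0.0592 with the replicate block, and it was -0.48 without the first Amh total array at 48h and -0.94 without the second. Col12a1 is a low-signal gene read at 411 and 116 in the Amh total arrays at 48h and at 166 and 185 in Stra8 total at 8d.

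**Figure D3:**
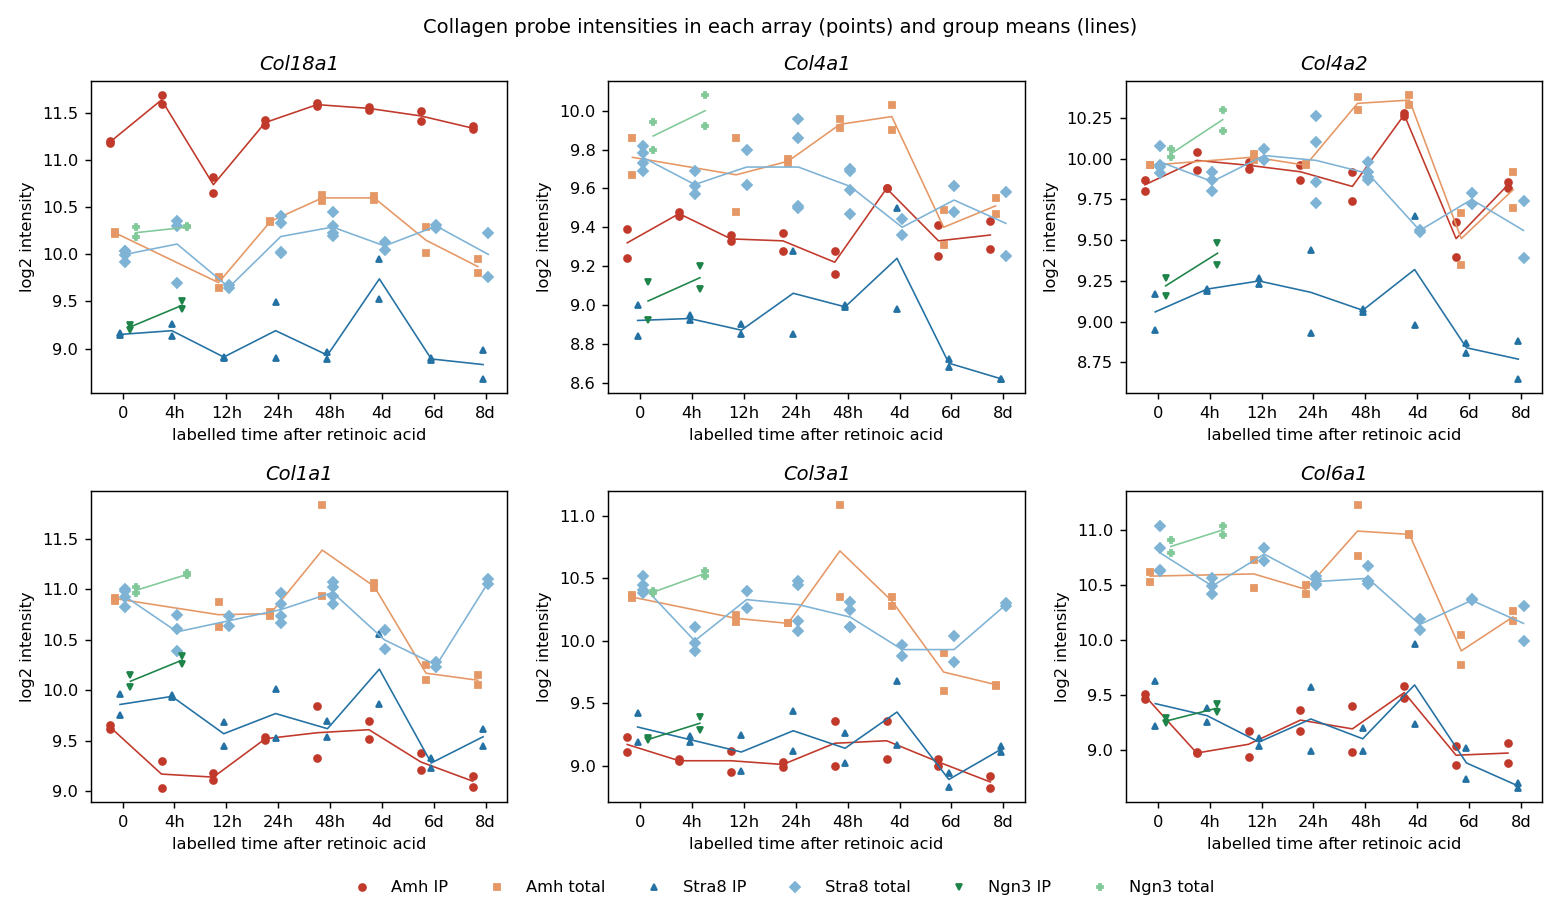
Log2 intensity of 6 collagen genes (y axes) in every array (points) by labelled time after retinoic acid (x axes, evenly spaced labels), with lines through group means for each line and fraction. Col18a1 in Amh IP lies above all other fractions at every time, and the Amh total arrays of Col1a1 and Col3a1 at 6d and 8d lie below their earlier arrays.

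In the ribosome-bound RNA of Sertoli cells the late change was higher, that is less negative or positive, than in Amh total RNA for 13 collagens and lower for 0, where 8.59% of all genes passed with a positive and 9.94% with a negative sign. They included Col6a2 (0.60, adjusted p = 0.0031), Col1a1 (0.54, adjusted p = 0.006), Col3a1 (0.50, adjusted p = 0.00444), Col18a1 (0.38, adjusted p = 0.0323) and Col4a1 (0.37, adjusted p = 0.0218). Without the first Amh total array at 6d the last values were 0.31 for Col18a1 (adjusted p = 0.132) and 0.32 for Col4a1 (adjusted p = 0.0852). In Amh IP itself Col1a1 went from 551 through 734 to 917 in early arrays to 528 to 666 in late ones (-0.28, adjusted p = 0.0371), and Col6a1 differed by -0.29 (adjusted p = 0.0228). With the replicate block Col1a1 was at an adjusted p of 0.0570. Without the first Amh IP array at 6d Col1a1 was at -0.23 (adjusted p = 0.165) and Col6a1 at -0.25 (adjusted p = 0.121). Col18a1 in Amh IP went from 1611 through 2496 to 3120 early to 2575 to 2934 late.

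Genes that rose in Amh IP were Col28a1 (0.48, adjusted p = 1.18e-06), Col17a1 (0.28, adjusted p = 2.24e-05) and Col20a1 (0.25, adjusted p = 0.0194, but 0.0919 without the second array at 8d). Col28a1 read 130 through 156 to 184 in early arrays and 211 to 224 in late ones, with every late array above every early one as for 5.76% of all genes. Col28a1 also read 219 and 215 in the Amh IP arrays labelled 4h, which lie outside this contrast. Its level is in the lowest 30% of genes.

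In germ cell ribosomes (Stra8 IP) Col6a1 (-0.44, adjusted p = 0.000273), Col1a2 (-0.40), Col14a1 (-0.36), Col4a2 (-0.34, adjusted p = 0.000951), Col4a1 (-0.30, adjusted p = 0.00246), Col1a1 (-0.29), Col17a1 (-0.28), Col25a1 (-0.26), Col5a1 (-0.20) and Col13a1 (-0.18) fell. Without the second array at 8d Col1a1 was at -0.25 (adjusted p = 0.102) and Col14a1 at -0.32 (adjusted p = 0.0742). Col4a1 read 412 and 421 at 6d and 394 and 395 at 8d, below all early arrays (458 to 620), as were the late arrays of 8.09% of all genes. Between the IP fractions the late change was higher in Amh for 6 collagens (20.5% of all genes) and lower for 0 (20.4%): Col17a1 (0.56, adjusted p = 2.14e-08), Col28a1 (0.49, adjusted p = 0.00023), Col18a1 (0.36, adjusted p = 0.0211), Col4a1 (0.35, adjusted p = 0.0157), Col25a1 (0.35) and Col5a1 (0.28). Col17a1, a hemidesmosome collagen, read 456 and 439 at 0 and 366 and 320 at 8d in Stra8 IP, and 333 and 339 at 0 and 403 and 381 at 8d in Amh IP. The Col18a1 value was 0.29 (adjusted p = 0.0911) without the first Stra8 IP array at 8d, and that of Col4a1 was 0.31 (adjusted p = 0.0537) without the second Amh IP array at 6d.

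Levels of the marker lists are given beside these changes. With no fold minimum 18.2% of all genes fell in Amh total, 17% in Stra8 total and 21.6% in Stra8 IP. In Stra8 total 24.5% of all genes rose, and in Amh IP 16.9% did. The interstitial stroma list was at a mean log2 of 10.16 to 10.83 in early and 9.66 to 9.81 in late Amh total arrays, and 6 of its 7 genes fell. The endothelial list went from 9.04 to 9.34 early to 8.49 to 8.82 late, and 9 of 11 fell. The myoid list was at 9.56 to 10.05 early and 9.46 to 10.14 late, and 1 of 11 fell. In Stra8 total the stroma list went from 10.08 to 10.71 early to 9.97 to 10.06 late (5 of 7 fell), and the Sertoli list from 11.82 to 12.02 to 11.61 to 11.78 (6 of 14 fell and 2 rose). In Stra8 IP the Sertoli list went from 9.58 to 10.53 early to 9.14 to 9.51 late (9 of 14 fell), and the myoid list from 8.58 to 8.89 to 8.27 to 8.50 (6 of 11 fell). The endothelial list there went from 8.12 to 8.54 early to 7.82 to 7.95 late (8 of 11 fell). In Amh IP the macrophage list was at 7.49 to 7.73 early and 7.79 to 7.97 late, and 1 of 10 rose. The myoid list there was at 8.61 to 8.75 early and 8.73 to 9.04 late. The germ cell list was at 8.22 to 8.74 early and 8.69 to 8.93 late. The Sertoli list was at 12.47 to 12.65 and 12.59 to 12.72, and the Leydig cell list at 8.02 to 9.06 and 8.13 to 9.09. The stroma list was at 8.18 to 8.74 early and 8.0 to 8.35 late, and the endothelial list at 7.84 to 8.16 and 7.8 to 7.95. The part of these lists in the collagen changes was not tested.

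**Figure D4:**
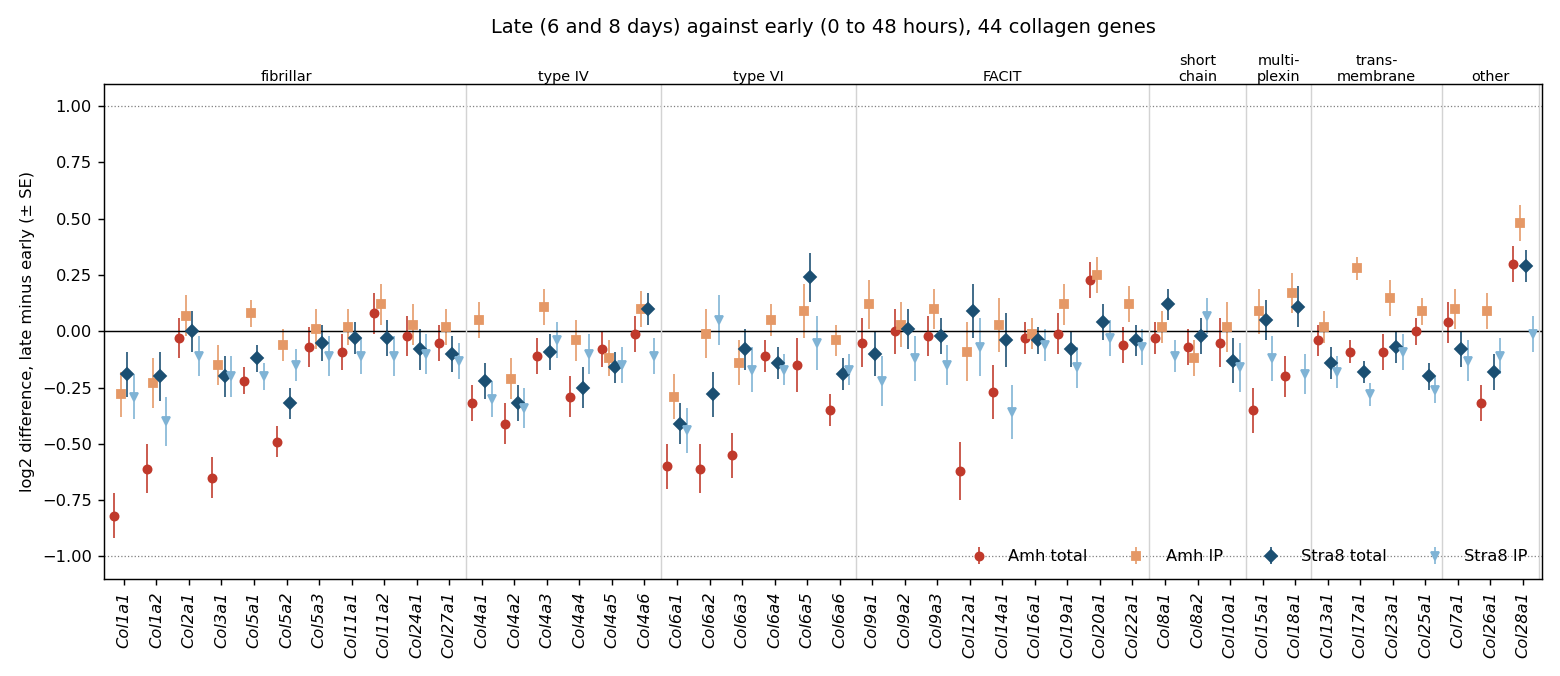
Log2 difference of late (6d and 8d) from early (0 to 48h) arrays (y axis, mean ± SE of the limma fit) for the 44 collagen genes (x axis, by chain class) in 4 combinations of line and fraction; dotted lines mark 2-fold. The lowest point is Col1a1 in Amh total RNA at -0.82, and no point reaches a 2-fold difference.

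Whole time courses were tested with a moderated F test, which takes in the 4h and 4d arrays. No collagen was called in any of the 4 courses (6.9% of all genes in Stra8 total, 7.66% in Amh total, 10.8% in Stra8 IP and 7.62% in Amh IP). With no fold minimum 19, 30, 16 and 25 collagens passed in that order, where 65.9%, 54.4%, 57.8% and 53.3% of all genes did. The Amh total count of called genes was 3 without the second array at 48h. The contrast of arrays labelled 4h with 0 called 0 collagens in Stra8 IP (0.241% of all genes), Stra8 total (0.386%), Ngn3 IP (0.311%) and Ngn3 total (0.301%). The labels of the Stra8 total arrays at 4h are in doubt, since their Rarb levels lay apart as given above. Col3a1 in Stra8 total (-0.44) and Col17a1 in Ngn3 IP (0.34) passed, where 16.6% and 2.06% of all genes did, the first at an adjusted p of 0.0908 when only the compared groups were fitted and the second at 0.832 without the first Ngn3 IP array at 0.

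Chains that assemble in 1 trimer were compared over the 37 total RNA arrays of the Stra8 and Amh lines. All 10 pairs correlated with an adjusted p under 0.05 in permutation tests of 100000 resamples, where 1e-05 is the smallest p they can give. The permutations shuffled single arrays freely over lines and times, as if arrays of a group were independent. Their p-values therefore also take in differences between groups. Pearson's r was 0.94 and Spearman's rho 0.85 for Col1a1 and Col1a2, 0.91 and 0.88 for Col4a1 and Col4a2, and 0.91 and 0.88 for Col6a1 and Col6a2 (each permutation p = 1e-05). Without the 2 arrays farthest from the median of the first gene these r were 0.91, 0.89 and 0.87. The other pairs had r of 0.67 (Col4a3 and Col4a4), 0.52 (Col4a5 and Col4a6), 0.61 (Col5a1 and Col5a2), 0.75 (Col6a1 and Col6a3), 0.51 (Col8a1 and Col8a2), 0.82 (Col9a2 and Col9a3) and 0.72 (Col11a1 and Col11a2).

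Within lines, all 10 pairs kept a Pearson adjusted p under 0.05 in the Amh line (14 arrays) and 9 did in the Stra8 line (23 arrays), where Col5a1 and Col5a2 had r = 0.32 (permutation p = 0.14). The relation of Col8a1 and Col8a2 in the Amh line rested on 2 arrays, without which r went from 0.70 to 0.16. With both lines pooled and the mean of its time over both taken from each array, all 10 passed. There r was 0.88 for Col1a1 and Col1a2 and 0.90 for Col4a1 and Col4a2. Differences between the lines at a time stay in these values. Shifts that all genes of an array share were not removed, and pairs of unrelated genes were not compared.

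Genes of the machinery that builds collagen were described by the same rule. Of 30 measured genes of chain modification, folding, processing and cross-linking, 3 were called lower in Amh IP against total RNA, 6 in Stra8 IP and 11 in Ngn3 IP, where 3.94%, 5.37% and 6.75% of all genes were. Called higher were 0, 0 and 1, where 1.1%, 3.84% and 6.18% of all genes were. Lox, which cross-links fibrils, differed by -1.69 in the Amh line, -1.49 in the Stra8 line and -1.93 in the Ngn3 line. Serpinh1, the collagen chaperone Hsp47, differed by -0.31, -0.93 and -1.28, and P4ha1, a prolyl hydroxylase subunit, by 0.75, -0.52 and -0.32. Directly compared, Amh IP was called higher than Stra8 IP in 6 of the 30 (9.26% of all genes) and lower in 2 (7.54%), with Fkbp14 (2.18), P3h4 (2.02) and P4ha1 (1.26 ± 0.05, adjusted p = 2.08e-28) leading, and Pxdn (-1.31) and Pcolce2 (-1.03) were lower. Pxdn is the peroxidase that cross-links type IV collagen.

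Over time 4 of the 30 were called lower in Amh IP late against early, where 0 collagens were and 2.21% of all genes were called in either direction: Bmp1 (-1.46), Pxdn (-1.38), Pcolce (-1.30) and Serpinh1 (-1.11 ± 0.08, adjusted p = 2.24e-15). In Amh total, Lox (-1.43) and P3h2 (-1.13) were called lower, where 2.2% of all genes were called in either direction, and Serpinh1 was at -0.71.

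Of the 21 other basement membrane genes 6 were called lower in Amh IP against total, where 3.94% of all genes were, led by Smoc2 (-2.00), Nid2 (-1.55) and Lamc3 (-1.40), with Lamb1 (-1.21) and Hspg2, the perlecan core protein (-1.20), also lower. Lama1 (0.61) and Lamc1 (0.42), laminin chains, rose, and Lama5 (-0.41) and Nid1 (-0.48) fell. Compared with Stra8 IP, where 9.26% of all genes were called higher and 7.54% lower, Amh IP was higher in Lamb2 (1.70), Sparc (1.57) and Lama1 (1.50), and lower in Nid2 (-2.19), Smoc2 (-1.25) and Lamb1 (-1.14). These laminin differences were thus of both signs, while the 6 type IV chains had 1 sign in the same comparison.

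Of the 27 other interstitial matrix genes 13 were called lower in Amh IP, 16 in Stra8 IP and 17 in Ngn3 IP, where 3.94%, 5.37% and 6.75% of all genes were. Ogn, Dcn and Dpt, small matrix proteins of connective tissue, led in the Amh line (-2.71, -2.35 and -2.32). Fn1, fibronectin, was at -1.80 in the Amh line but at 0.55 in the Stra8 line and 0.42 in the Ngn3 line, a pattern opposite to that of Col18a1. Late against early in Amh total, 7 of the 27 were called lower and 1 higher, where 2.2% of all genes were called in either direction, led by Vcan (-1.62), Dpt (-1.41) and Thbs2 (-1.36), with Prelp higher (1.16).

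Among 10 collagen receptors, Ddr1, a receptor tyrosine kinase for collagen, was called higher in Amh IP (1.08) and lower in Stra8 IP (-1.41) and Ngn3 IP (-1.16), as Col18a1 was higher in the first and lower in the others. Ddr2 (-1.48) and Itga1 (-1.47) were called lower in Amh IP. The all-gene shares there were 1.1% higher and 3.94% lower. Of 14 matrix proteases and inhibitors 0 were called in Amh IP against total (1.1% of all genes higher and 3.94% lower). Of these 14, 4 were called higher in Amh IP than in Stra8 IP (9.26% of all genes), among them Timp3 (2.52), Timp2 (2.34) and Mmp14 (2.23), with Mmp9 lower (-1.59). Mmp2, a gelatinase, was called lower late against early in Amh IP (-1.90) and in Amh total (-1.11), where 2.21% and 2.2% of all genes were called.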

How the data were processed

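The authors deposited RMA intensity on a linear scale for 28853 probe sets of a one-colour gene array, per the labels and the submitters' processing notes; its version is not given in the sources used here. Total RNA and RNA pulled down with tagged polysomes had been amplified from small amounts, per the labels' protocols. The log2 of each deposited intensity was taken with no other scaling. Array medians ran from 252.6 to 300.5 and minima from 25.1 to 26.3, so low values sit near a floor, and the number of arrays sets the precision. Probe sets listed with 1 gene (21789 of them, of which 99.6% matched by gene number) were kept, with the one of highest mean for 999 genes with more than 1, Col6a5 and Col6a6 among them.

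One limma 3.58.1 model (R 4.3.3) with a mean per group over all 77 arrays (35 groups: 31 of 2 arrays, 1 of 3 and 3 of 4), an intensity trend and Benjamini-Hochberg adjustment over 19938 genes gave all two-sided tests. Fractions, lines and times were compared as means over shared times. The labels do not tie replicates to separate animals, and p-values measure the spread between these arrays. On simulated data 100% of changes of 1.5 on the log2 scale were called in the Amh fraction comparison. The simulated arrays had independent noise around a single mean per gene, without any link between IP and total arrays. Replicate numbers were tested as pairs of IP and total RNA by the correlation of their residuals. All 7 Amh pairs exceeded 0.1 (0.114 to 0.585), as did 4 of 8 Stra8 pairs and 2 of 2 Ngn3 pairs. The main fit paired neither fractions nor times. In the replicate block, an alternative fit, IP and total arrays of the same replicate number were linked for comparisons of fractions. For comparisons of lines or times, replicate number was a term of the model instead, shared by same-numbered arrays of different times.

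The members, gene lists and tests were chosen with earlier results of these data known. Named genes were the called collagens of a comparison, 13 collagens of interest in any comparison, any collagen where its class is described, up to 3 called genes per direction of the pathway lists, and 14 fixed others. Alternatives were no fold minimum, a filter on the 30% of genes of lowest signal, quantile normalization, median centring, probe sets averaged per gene, no intensity trend, the replicate block, the compared groups alone, no Amh arrays of 4h and 4d, and each array left out in turn. Chosen after seeing the data were fits that drop the Stra8 total arrays of 4h, 3 arrays of narrow signal range, or the first arrays of Amh total 48h and Stra8 IP 4d. Correlations and figures used numpy 2.4.6, scipy 1.17.1, pandas 2.3.3 and matplotlib 3.10.9.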

Additional observations from a re-analysis of the deposited data

Results flagged for a closer look

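A difference between lines, fractions or both was found, by a test of the difference itself in the limma fit, for 23 results, and no array stood apart from its group by Dixon's test for 24 genes in the 3 groups of 4 arrays (Stra8 total at 0, 24h and 48h). The other 32 groups, of 2 or 3 arrays, were not tested. Values are log2 differences.

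The enrichment of IP over total RNA was higher in the Amh line than in the Stra8 line for Col18a1 (2.09), Col4a2 (0.64), Col6a6 (0.36), Col9a3 (0.33), Col28a1 (0.32), Col4a1 (0.32), Col4a3 (0.28) and Col4a4 (0.21). It was lower for Col14a1 (-0.55), Col6a2 (-0.30) and Col1a1 (-0.26).

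The late change in total RNA was lower in the Amh line than in the Stra8 line for Col12a1 (-0.71) and Col1a1 (-0.63). In the Amh line it was higher in IP than in total RNA for Col6a2 (0.60), Col1a1 (0.54), Col12a1 (0.53), Col3a1 (0.50), Col18a1 (0.38) and Col4a1 (0.37). Between IP fractions it was higher in Amh than in Stra8 for Col17a1 (0.56), Col28a1 (0.49), Col18a1 (0.36) and Col4a1 (0.35). The Col12a1 difference between Amh fractions was at an adjusted p of 0.161 when only the compared groups were fitted and at 0.0533 with the replicate block. It was 0.30 without the first Amh total array at 48h and 0.75 without the second, and 16 of the 24 fits that each left out 1 array lost the call.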

How the results depend on the processing

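Of results that count genes, 326 kept within 1.5 times of their main count under a setting other than leaving out an array and 27 did not, and of gene values 1312 kept their direction and side of the threshold, 24 lost it, 17 gained it and 2 reversed. With 1 array left out the figures were 635 and 11 for counts, and 3019, 99, 7 and 0 for genes. In both sets many counts compare 0 called genes with 0 and were taken as kept, so these totals do not measure robustness. The 2 reversals were Col4a2 (0.03) and Col4a6 (0.08) in Amh IP against total with median centring. That setting also brought the called genes there from 7 to 4, and those that passed in late against early Stra8 total from 10 to 19 (21 with quantile normalization). For Stra8 IP against total 6 genes were called with quantile normalization, without 3 arrays of narrow range, and without the first arrays of Amh total 48h and Stra8 IP 4d. With no fold minimum the counts were 31, 23 and 20 for IP against total in the Amh, Stra8 and Ngn3 lines, 24 for Amh IP against Stra8 IP, 2 for the totals, 17 for the difference in enrichment, 17, 10, 10 and 5 for late against early (Amh total, Stra8 total, Stra8 IP, Amh IP), 2, 13 and 6 for the 3 differences in late change, 19, 30, 16 and 25 for the courses, and 1 and 1 for 4h in Stra8 total and Ngn3 IP. With the 4h and 4d Amh arrays left out 11 genes passed in the difference in enrichment, and with the compared groups alone 10 passed in late against early Amh IP. Fewer genes and arrays apart, the cause of these shifts was not tested. Leaving out 1 array gave 2 to 6 called genes in Stra8 IP against total, 6 to 13 passing in late against early Stra8 total, 8 to 16 in Stra8 IP and 2 to 7 in Amh IP, and 0 to 3 called in the Amh total course. With the replicate block, which pairs IP with total arrays in comparisons of fractions, called counts were 7, 3 and 5 in the Amh, Stra8 and Ngn3 lines. There 34, 23 and 22 genes passed, and no count moved by over 1.5 times in any comparison. For comparisons of lines or times the block was replicate number as a model term, not a pairing of IP with total arrays. Among gene values followed by name these fits together moved 6 across the threshold, each given beside its result, and changed no other call. Changes of 0.5 on the log2 scale were never called in the simulation, which the 2-fold rule itself sets, so this does not measure sensitivity. Genes near the floor are limited by their low signal.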

Other observations

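Col18a1 was low at 12h in 3 of the 4 courses. In Amh IP its 2 arrays read 1611 and 1810 at 12h, against 2325 and 2354 at 0 and 2648 and 2758 at 24h. In Amh total they read 796 and 866 at 12h, against 1189 and 1212 at 0, and in Stra8 total 814 and 797, against 966 to 1056 at 0. The difference of 12h from 0 was the largest of the course in Amh total (-0.53) and Amh IP (-0.45), with adjusted p from the limma F test of 1.79e-06 and 2.05e-05, and in Stra8 total (-0.34, adjusted p = 0.00144). In Stra8 IP the largest difference was 0.59 at 4d (adjusted p = 9.83e-06 from the same test). The mean log2 of the Sertoli list was 11.15 and 10.17 in these arrays, against 9.86 and 10.40 in Stra8 IP at 0. These F tests take in all times of a course. They were passed by 54.4% of all genes in Amh total, 53.3% in Amh IP, 65.9% in Stra8 total and 57.8% in Stra8 IP. The 12h time was picked after its values were seen. Some marker lists differed between 12h and 0 too, and others did not. The mean log2 of the Leydig cell list was 9.40 and 9.34 in Amh total, against 10.39 and 10.04 at 0. In Amh IP it was 8.04 and 8.02, against 9.06 and 8.71. The Sertoli list was at 11.62 and 11.60 in Amh total, against 11.90 and 11.89, and at 12.47 and 12.48 in Amh IP, against 12.53 and 12.48. In Stra8 total the Leydig cell list was at 9.96 and 9.93, against 10.21 to 10.52. The Sertoli list there was at 11.90 and 11.87, against 11.85 to 11.97 at 0. Low Leydig cell values were also seen at other times, with 8.96 and 10.12 in Amh total at 6d and 9.82 to 10.29 in Stra8 total at 24h. The part of these lists in the Col18a1 values was not tested.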
